A study of Mus musculus with 25 samples.

Results

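Spermatogonia labelled differentiating (Diff) were set against spermatogonia labelled undifferentiated (Undiff) within each of 3 single-cell RNA libraries, and the difference between the clusters is called the step. Cells were taken from the authors' own cluster column, where Diff_SGs and Undiff_SGs name both populations, and cells with 10 or more UMIs (unique molecular identifiers, counted transcripts) summed over Acta2, Myh11, Myl9, Sparc, Col1a2, Hba-a2 and Hbb-bs, markers of muscle, stromal and red blood cells, were left out. This kept 2162 of the 4528 deposited cells and removed 36. The kept cells held at most 7 such UMIs and the removed ones at least 10. The libraries came from testes of Ythdc2 knockout (KO) and wild-type (WT) mice, and in all of them cells had been sorted for 4N DNA content, so both clusters hold cells after DNA replication. The age label is P10, read here as postnatal day 10, although the sample titles add the word embryo. The study tested what the RNA helicase YTHDC2 does in male germ cells, and its helicase and YTH domain mutants were made in the B6D2F1 hybrid of C57BL/6 and DBA/2; the knockout line had been made earlier, and its background is not stated. There were 2 KO libraries, called KO A and KO B here because the cell table does not tie them to the 2 KO labels, and 1 WT library. Whether each library came from 1 animal or several is not given, so p-values of the step rest only on the spread between these libraries. What the p-values of the KO to WT difference rest on is stated with that test.

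Undifferentiated spermatogonia are the stem and progenitor cells of the testis, kept by GDNF and FGF signals from their surroundings. Under retinoic acid they turn on Kit and Stra8, become differentiating spermatogonia, divide a fixed number of times by mitosis and then enter meiosis. YTHDC2 and its partner MEIOC are needed in mice to leave the mitotic cycle at meiotic entry.

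The Diff cluster held 528 cells in KO A, 814 in KO B and 654 in WT. The Undiff cluster was far smaller, with 56 cells in KO A, 75 in KO B and 35 in WT. Summed counts were 6194930, 11225675 and 9698985 UMIs for Diff, against 1231708, 1760019 and 818038 UMIs for Undiff, in KO A, KO B and WT in that order. A median Diff cell held 9662.5, 11798 and 14305.5 UMIs, and a median Undiff cell held 18282, 20049 and 24784 UMIs. When each cell was thinned to 5000 UMIs, the median number of genes detected was 2597, 2547 and 2486.5 in Diff cells and 2544, 2524 and 2384 in Undiff cells, against 3881.5, 4246 and 4442 in Diff and 5390, 5585 and 5588 in Undiff without thinning. No cell barcode was shared between libraries (0 shared). Levels below are means of UMIs divided by the authors' size factor of each cell, called normalised UMIs per cell, and 9008 genes with a mean of at least 0.1 over the 6 values were tested. A log2 step is Diff minus Undiff on log2(level + 0.05). Median size factors were 0.946, 1.13 and 1.25 in Diff cells and 1.69, 1.88 and 1.91 in Undiff cells of KO A, KO B and WT. A rise or fall below is thus relative to this scaling and is not a change in unscaled UMIs per cell.

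In the Undiff cluster 5 cells stood apart from germ cells. They carried 52 to 139 UMIs of 10 leukocyte genes, among them Cd3e, Lck and Coro1a, and 0 to 3 UMIs of 10 germ cell genes, among them Ddx4 and Dazl. The other Undiff cells had at most 10 leukocyte UMIs and at least 15 germ UMIs, with a median of 59. There were 1 of 56 such cells in KO A, 1 of 75 in KO B and 3 of 35 in WT, which is 1.79%, 1.33% and 8.57% of the cluster. No Diff cell reached 20 leukocyte UMIs (0 cells). These leukocyte-like cells were found after the first comparison of KO with WT had been seen. Every tested KO to WT difference below is therefore given without them unless all cells are named. Levels and steps in the account of the step itself are of all kept cells unless stated otherwise. The counts of called genes are also given with all cells. Summed markers of Sertoli cells were at most 0.276 normalised UMIs per cell in any cluster and library. The sums of myoid and stromal markers were at most 0.172 and 0.307, and at most 0.0578 over the 4 myoid and 0.296 over the 6 stromal genes that the selection of cells did not use. That selection removed cells rich in such RNA, so these low sums were in part set by it. For red blood cells 2 of 5 markers are in the matrix, both of them genes of the selection, so their sum of at most 0.0149 is no check. For Leydig cells, macrophages and endothelium only 1 of 5, 1 of 7 and 2 of 5 markers are in the matrix, and their sums were at most 0.0536, 0.0109 and 0.0252.

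**Figure D1:**
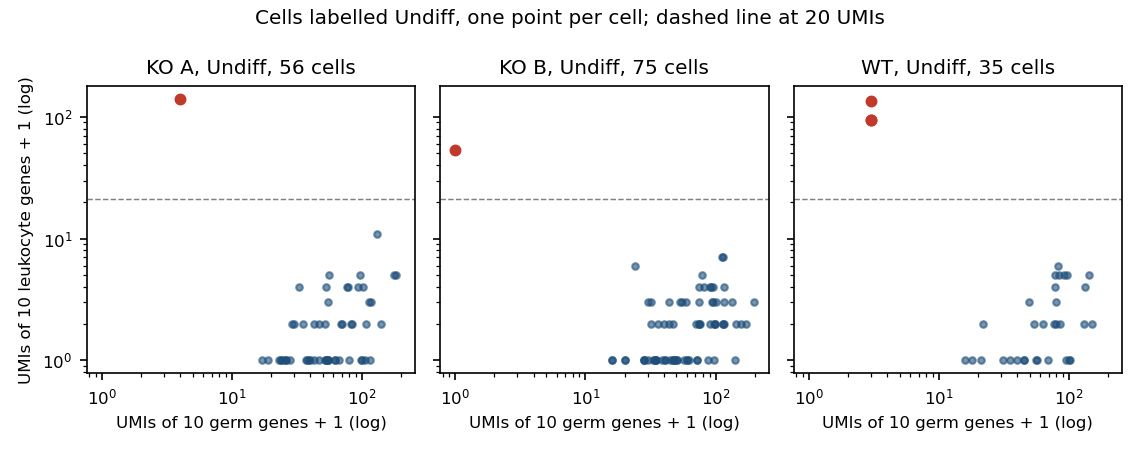
Each point is 1 cell labelled Undiff, with UMIs of 10 germ genes plus 1 on the x axis and UMIs of 10 leukocyte genes plus 1 on the y axis, both log axes, in KO A, KO B and WT. The 5 cells in red lie above the dashed line at 20 leukocyte UMIs and have at most 3 germ UMIs.

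Sequences are shown for the starts of 7 genes that carry the results below. Prss50, Esx1 and Meioc rose in Diff cells, Sdc4, Egr4 and Id4 fell, and the step of Kit differed between KO and WT. They were chosen after their values had been seen. Each line gives the 250 bases before the annotated transcription start, 5′ to 3′ along the gene, from RefSeq on build GRCm38.p6. Capitals mark matches, on either strand, to 1 of 8 short motifs. Those with a match here are the CCAAT box, whose letters are its name and which reads ATTGG on the other strand, the GC box, spelled GGGCGG and on the other strand CCGCCC, and the E-box, spelled CACGTG on both strands. The motifs searched without a match in these windows are the TATA box with the letters TATAAA, the cyclic AMP response element with TGACGTCA, the ETS motif with CCGGAAG, the E2F motif with GGCGGGAA and the EGR motif with GCGGGGGCG. A match is a description of the letters and not a binding site.
Prss50, chr9:110857714-110857963, + strand: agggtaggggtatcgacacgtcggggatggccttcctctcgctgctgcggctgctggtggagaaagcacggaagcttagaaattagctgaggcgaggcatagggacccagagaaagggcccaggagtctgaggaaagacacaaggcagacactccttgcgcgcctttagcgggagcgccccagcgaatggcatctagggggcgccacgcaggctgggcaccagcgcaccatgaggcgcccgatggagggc
Esx1, chrX:137120327-137120576, - strand: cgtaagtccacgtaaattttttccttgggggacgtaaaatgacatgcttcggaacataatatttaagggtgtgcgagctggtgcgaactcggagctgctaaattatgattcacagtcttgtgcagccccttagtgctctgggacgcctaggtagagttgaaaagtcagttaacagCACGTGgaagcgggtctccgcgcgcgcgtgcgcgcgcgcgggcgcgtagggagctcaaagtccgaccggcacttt
Meioc, chr11:102665335-102665584, + strand: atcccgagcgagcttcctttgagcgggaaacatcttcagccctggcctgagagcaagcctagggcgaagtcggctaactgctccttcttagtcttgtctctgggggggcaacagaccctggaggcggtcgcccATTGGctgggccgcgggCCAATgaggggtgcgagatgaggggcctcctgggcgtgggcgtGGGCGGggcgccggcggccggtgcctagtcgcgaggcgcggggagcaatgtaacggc
Sdc4, chr2:164443189-164443438, - strand: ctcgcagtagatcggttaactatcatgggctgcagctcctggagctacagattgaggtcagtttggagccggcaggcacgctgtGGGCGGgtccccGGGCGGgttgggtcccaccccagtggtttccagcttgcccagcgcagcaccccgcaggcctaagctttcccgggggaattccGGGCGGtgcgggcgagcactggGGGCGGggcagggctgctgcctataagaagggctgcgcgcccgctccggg
Egr4, chr6:85513590-85513839, - strand: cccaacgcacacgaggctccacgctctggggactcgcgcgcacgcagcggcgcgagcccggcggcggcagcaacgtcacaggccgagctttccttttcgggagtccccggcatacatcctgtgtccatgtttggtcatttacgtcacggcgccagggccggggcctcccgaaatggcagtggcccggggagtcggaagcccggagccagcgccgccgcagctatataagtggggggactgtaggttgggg
Id4, chr13:48260866-48261115, + strand: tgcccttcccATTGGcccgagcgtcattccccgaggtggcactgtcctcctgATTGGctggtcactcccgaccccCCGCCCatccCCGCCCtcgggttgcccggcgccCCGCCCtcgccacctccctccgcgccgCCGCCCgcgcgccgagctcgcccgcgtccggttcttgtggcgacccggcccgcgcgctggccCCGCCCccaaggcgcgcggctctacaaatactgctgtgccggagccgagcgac
Kit, chr5:75574737-75574986, + strand: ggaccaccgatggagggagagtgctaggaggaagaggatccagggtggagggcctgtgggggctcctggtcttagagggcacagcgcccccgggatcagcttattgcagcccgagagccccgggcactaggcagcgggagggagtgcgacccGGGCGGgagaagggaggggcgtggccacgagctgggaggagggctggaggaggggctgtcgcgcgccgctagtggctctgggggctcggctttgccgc

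The 7 windows share no motif. Esx1 has an E-box that begins 75 bases before its start, and Prss50 and Egr4 hold none of the 8 motifs. Sdc4 has 4 GC boxes and Id4 has 5 together with 2 CCAAT boxes, while Meioc has 2 CCAAT boxes and 1 GC box and Kit 1 GC box. A GC box was found in 64.3% of the promoters of the genes tested, a CCAAT box in 37.8% and an E-box in 9.65%, so such matches are common. Among genes that rose alike in the 3 libraries a GC box was in 66.0% of 365 promoters, and among those that fell alike in 63.4% of 669. The ETS motif differed most in percentage points. It was in 11.2% of the promoters of genes that rose alike, in 8.97% of those that fell alike and in 16.8% of all 7180 promoters of tested genes. These shares were not tested.

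Ythdc2, the targeted gene, was measured first. In Diff cells it stood at 0.571 and 0.519 normalised UMIs per cell in KO A and KO B and at 1.95 in WT. In Undiff cells without the leukocyte-like cells it stood at 0.316 and 0.301 in KO A and KO B and at 0.529 in WT. Both KO libraries were below WT in both clusters, and their transcripts were not absent. Where in the gene these UMIs lie is not given, and UMIs outside the disrupted part would be counted in KO cells as well.

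Most genes tested changed at the step, 5574 of 9008 (61.9%). With limma on the paired clusters, 2725 genes were higher in Diff (30.3% of those tested) and 2849 were lower (31.6%) at an adjusted p under 0.05. These shares are the background for the counts given below for gene lists. A stricter class asked for a called step with a log2 change of at least 1 in the same direction in each library, and 449 genes rose (4.98%) and 882 fell (9.79%) alike in this sense. Without the leukocyte-like cells 2886 genes were higher (32.3%) and 2922 lower (32.7%), 5808 in all (65.0%), and those alike numbered 498 (5.57%) and 859 (9.61%); 1253 genes were alike in both analyses. The authors made the clusters from the expression of these same cells, so a called step shows that the libraries repeat a difference and is not an independent test of the labels. The split of calls depends on the scaling. With TMM scaling (edgeR's trimmed mean of M-values) of the summed counts the median step of all genes moved to 0.16, against -0.01 here, and 3789 genes were higher and 2391 lower, which is 61.3% of calls higher against 48.9%. All genes that changed alike kept their sign under TMM (100%).

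Among genes that changed alike and stood at 0.5 or more in the higher cluster, the largest rise was that of Prss50, a testis serine protease. It stood at 5.71, 5.31 and 6.76 normalised UMIs per cell in Diff cells of KO A, KO B and WT, and at 0.290, 0.249 and 0.244 in Undiff cells. The step was 4.26 ± 0.11 (log2, SE, limma adjusted p = 2.65e-09). Esx1, an X-linked homeobox factor of testis and placenta, stood at 4.43, 4.05 and 4.82 in Diff cells and at 0.239, 0.251 and 0.239 in Undiff cells, a step of 3.93 ± 0.11. In both genes the 3 libraries differed little in either cluster.

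Meioc, whose protein binds YTHDC2, stood at 3.64, 4.17 and 5.20 normalised UMIs per cell in Diff cells and at 0.213, 0.240 and 0.510 in Undiff cells. Its step was 3.64 ± 0.13 (log2, SE, limma adjusted p = 1.49e-08), and it rose in both KO libraries as it did in WT, by 3.81, 3.86 and 3.23. Dmrtb1, also known as Dmrt6, a factor that in mice ends the spermatogonial program before meiosis, rose by 3.35 ± 0.23. Sgcb, a sarcoglycan, rose by 4.01 ± 0.20, and Cited1, an X-linked transcriptional cofactor, by 2.89 ± 0.11. In each library the Diff mean of these genes was above the Undiff mean, as the class of genes that changed alike required.

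**Figure D2:**
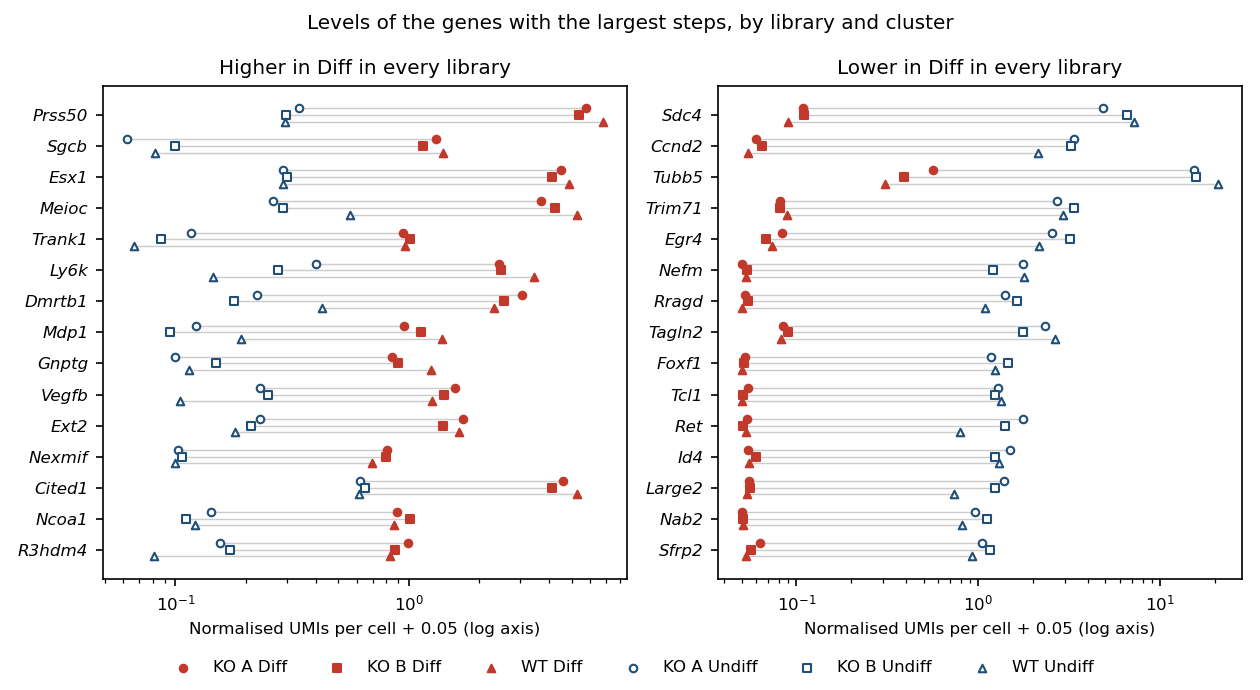
Levels of the 15 genes with the largest rise (left) and the 15 with the largest fall (right) among those that changed alike, as normalised UMIs per cell plus 0.05 on a log axis, filled for Diff and open for Undiff, with a marker shape for each library. In every row the 3 Diff points lie apart from the 3 Undiff points, as with Prss50 at 5.31 to 6.76 against 0.244 to 0.290. The genes were chosen for large steps in the same direction in every library, so this separation was largely set by the choice.

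The largest falls included genes listed for undifferentiated spermatogonia. Sdc4, a heparan sulfate proteoglycan of the cell surface, stood at 0.0590, 0.0598 and 0.0394 normalised UMIs per cell in Diff cells of KO A, KO B and WT, and at 4.81, 6.51 and 7.17 in Undiff cells. The step was -5.90 ± 0.16 (log2, SE, limma adjusted p = 2.65e-09). Ccnd2, the D-type cyclin of spermatogonia, stood at 0.00985, 0.0145 and 0.00393 in Diff cells and at 3.29, 3.19 and 2.07 in Undiff cells, a step of -5.58 ± 0.16. Trim71, a regulator of stem cell RNAs, fell by 5.15 ± 0.15, and Nefm, a neurofilament gene, by 4.90 ± 0.19. Tubb5, a beta-tubulin, fell by 5.40 ± 0.18, but it has near-identical copies, so its count is uncertain.

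Of the 24 listed genes of undifferentiated spermatogonia, 22 were in the matrix and 16 were tested, and these 16 fell. Their median step was -3.25, against -0.01 for all genes tested, and 15 fell alike. Most of them passed the filter on low values through Undiff cells alone, so the count is a description. The other 6 in the matrix, Utf1, Eomes, Bcl6b, Neurog3, Cdh1 and Tspan8, stood at 0 to 0.0332 normalised UMIs per cell in Diff cells and at 0 to 0.225 in Undiff cells. Id4, a marker of stem spermatogonia, stood at 0.00408, 0.00967 and 0.00515 normalised UMIs per cell in Diff cells and at 1.44, 1.18 and 1.25 in Undiff cells, a step of -4.57 ± 0.18. Gfra1, the GDNF co-receptor, had 0 UMIs in the 1996 Diff cells, so that at most 0.150% of such cells may carry a UMI (an upper limit of 3 counts, counting error only), and stood at 0.794, 0.720 and 0.618 in Undiff cells. Zbtb16 (PLZF), a repressor of differentiation, fell to 0.367, 0.370 and 0.266 in Diff cells, against 2.57, 2.82 and 2.06 in Undiff cells, and so remained detected after the step. The exception to the class was Foxo1, a transcription factor of stem cell upkeep, which fell by 0.95 ± 0.12 and by under 1 in KO A and WT.

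The list of GDNF and FGF signalling overlaps that list in Gfra1, Ret, Etv5 and Egr4. Of its 12 tested genes 8 fell, all of them alike, 1 rose and 3 did not pass the test, with a median step of -2.67. Each of the 8 averaged under 0.1 in Diff cells and so passed the filter on low values through Undiff cells alone, which makes this count a description as well. Ret, the signalling receptor of GDNF, stood at 0.00348, 0.00110 and 0.00314 normalised UMIs per cell in Diff cells and at 1.72, 1.35 and 0.746 in Undiff cells. Among genes downstream of these receptors, the step of Etv5, an ETS factor induced by GDNF, was -3.56 ± 0.20, that of Egr4 was -5.12 ± 0.17 and that of Dusp6, a feedback phosphatase of the ERK pathway, was -3.98 ± 0.22. Among immediate early genes, which are induced within minutes by growth signals and also by cell handling, 10 of 14 fell and 0 rose, with a median of -1.64, and 4 of those that fell had passed the filter through Undiff cells alone. Without the leukocyte-like cells 9 of 13 fell and 0 rose. Egr1, Egr2 and Jun fell by 2.70 ± 0.19, 2.93 ± 0.21 and 2.43 ± 0.13. Hspa1a, a heat shock gene placed on the same list, fell by 2.96 ± 0.22.

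The genes listed for differentiating spermatogonia moved both ways, so this list did not mark the Diff cluster as a whole. Of 12 tested, 6 rose (Kit, Dmrtb1, Stra8, Rhox13, Crabp1 and Prss50), 4 fell (Ccnd2, Sohlh1, Dmrt1 and Dnmt3b) and 2 did not pass the test, with a median step of 0.25. Stra8, the retinoic acid target needed for meiotic entry, stood at 4.54, 5.98 and 3.35 normalised UMIs per cell in Diff cells and at 2.61, 2.56 and 2.14 in Undiff cells. It was thus already well detected in Undiff cells, and its step of 0.88 ± 0.11 (log2, SE, limma adjusted p = 4.44e-05) was smaller than that of Rhox13, an X-linked homeobox gene, at 2.45 ± 0.10. Sohlh1, a factor needed for spermatogonial differentiation, fell by 0.89 ± 0.10. Sohlh2, its partner, had a step of -0.39 ± 0.16 (adjusted p = 0.0563) and Tex14, of the bridges between germ cells, one of 0.10 ± 0.11 (adjusted p = 0.465). The Stra8 levels in the Diff cells of KO A and KO B were above that of WT, but its step was not called different in KO and WT (difference without the leukocyte-like cells 0.44 ± 0.16, limma adjusted p = 0.103, edgeR adjusted p = 0.212).

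Retinoic acid genes also moved both ways, with 4 of 10 higher, 3 lower and a median step of 0.37, shares near those of all genes tested (30.3% higher and 31.6% lower). The receptors Rarg and Rxrb rose by 0.80 ± 0.20 and 0.79 ± 0.15. Aldh1a3, a retinaldehyde dehydrogenase, fell by 2.61 ± 0.23.

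Several genes of meiotic entry were higher in Diff cells. Of 10 tested, 6 rose, 1 fell and 3 did not pass the test, with a median step of 0.69. Rec8, the meiotic kleisin of cohesin, stood at 1.43, 1.27 and 1.26 normalised UMIs per cell in Diff cells and at 0.270, 0.132 and 0.104 in Undiff cells, a step of 2.72 ± 0.18. Prdm9, the histone methyltransferase that places recombination sites in mice, rose by 2.33 ± 0.19. Its levels were 0.349, 0.397 and 0.501 in Diff cells and 0.0364, 0.0309 and 0.0614 in Undiff cells.

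Among 12 tested genes of the synaptonemal complex and of cohesin, 7 rose, 0 fell and 5 did not pass the test, with a median step of 0.65. Sycp1, the transverse filament protein, stood at 7.77, 9.36 and 13.5 normalised UMIs per cell in Diff cells and at 4.34, 3.93 and 4.28 in Undiff cells, a step of 1.24 ± 0.13. Sycp2 of the chromosome axis rose by 1.46 ± 0.11. The Undiff levels of both genes were alike in the 3 libraries, while the Diff level was highest in WT. Of 19 tested recombination genes 7 rose and 3 fell, with a median of 0.30, while 30.3% of all genes tested rose and 31.6% fell. With TMM scaling 11 recombination genes rose and 1 fell, while 3789 of all 9008 genes tested rose and 2391 fell. Tex11, on the X chromosome, rose by 1.32 ± 0.12, Dmc1, the meiotic recombinase, by 0.92 ± 0.15 and Tex15 by 0.89 ± 0.10.

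Regulators of the G1 phase moved both ways. Of 14 tested D cyclins, their kinases and CDK inhibitors, 6 rose and 6 fell. Ccnd1 rose by 1.42, whereas the step of Ccnd2 was -5.58 and that of Ccnd3 -2.19, and Cdk4, the kinase they share, fell by 2.64 ± 0.11. The inhibitors Cdkn1b (p27) and Cdkn1c (p57) fell by 3.23 ± 0.22 and 2.65 ± 0.15. Cdkn1b stood at 0.00292, 0.00690 and 0.00335 normalised UMIs per cell in Diff cells and at 0.369, 0.432 and 0.602 in Undiff cells.

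Both clusters hold 4N cells, so this comparison is between cells of the same DNA content. Of 20 mitotic genes 13 rose, 3 fell and 4 did not pass the test, with a median step of 0.48. Without the leukocyte-like cells 16 rose and the median was 0.78. Plk1, a mitotic kinase, stood at 4.37, 3.89 and 4.53 in Diff cells and at 1.33, 1.23 and 1.73 in Undiff cells, and rose by 1.55 ± 0.10. Mki67, a marker of proliferation, rose by 1.06 ± 0.13. Of 20 S phase genes 3 rose and 7 fell, against 6 and 6 with TMM scaling. Over all genes tested 30.3% rose and 31.6% fell without TMM scaling, and with it 3789 of 9008 rose and 2391 fell. Ccne2 was higher by 1.68 ± 0.15 and Chaf1b lower, with a step of -2.84 ± 0.20.

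Glycolysis genes were mostly lower in Diff cells. Of 16 tested genes 14 fell, 0 rose and 2 did not pass the test; 11 fell alike and the median step was -1.96. Without the leukocyte-like cells 14 fell and 1 rose, and with TMM scaling 14 fell and 2 rose. Of the 14 that fell, 6 had passed the filter on low values through Undiff cells alone. Pkm, pyruvate kinase, stood at 0.797, 0.665 and 0.618 normalised UMIs per cell in Diff cells and at 5.37, 5.19 and 6.22 in Undiff cells, a step of -2.93 ± 0.11. Aldoa, an aldolase, stood at 0.333, 0.283 and 0.254 in Diff cells and at 2.54, 2.72 and 3.11 in Undiff cells. Ldha, lactate dehydrogenase A, had a step of -3.64 ± 0.23, and its levels in Diff cells were 0, 0.00145 and 0.00779. Of the 26 nuclear genes of the respiratory chain 8 rose, 7 fell and the median was 0.09. These shares were near those of all genes tested (30.3% higher and 31.6% lower). With TMM scaling 14 rose and 5 fell with a median of 0.24, against a median of 0.16 for all genes tested. Ndufa1 on the X chromosome rose by 1.61 ± 0.12 and Ndufb9 fell by 1.09 ± 0.11. Of 12 genes encoded in mitochondrial DNA, 3 rose and 2 fell, against 7 and 1 with TMM scaling. Under that scaling 3789 of all 9008 genes tested rose and 2391 fell.

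Of 14 tested genes of the piRNA pathway, which silences transposons, 9 fell, 0 rose and 5 did not pass the test, with a median step of -0.78. Tdrd5, Gtsf1 and Piwil4, which act in piRNA production or piRNA-guided silencing, fell by 2.97 ± 0.19, 2.32 ± 0.11 and 2.26 ± 0.23. Gtsf1 fell to 0.460, 0.497 and 0.584 normalised UMIs per cell in Diff cells, against 2.71, 2.91 and 2.64 in Undiff cells. Of 83 ribosomal protein genes 51 fell and 9 rose (42 and 17 with TMM scaling), with a small median of -0.32, and many of them have near-identical copies, so single members are uncertain. Among 14 genes of Polycomb complexes and E2F6, 7 fell and 4 rose, but 4 fell and 5 rose with TMM scaling. Pcgf6, which belongs to the variant complex that keeps germ cell genes silent in mouse embryonic stem cells, fell by 3.22 ± 0.19. Of 8 tested genes of DNA methylation 2 rose and 2 fell (4 and 2 with TMM scaling), of 13 germ cell RNA-binding genes 4 rose and 5 fell (7 and 5), and of 9 adhesion genes 4 rose and 3 fell. For all genes tested the shares were 30.3% higher and 31.6% lower without TMM scaling, and with it 3789 of 9008 rose and 2391 fell. Bsg (basigin) and Cdh2 (N-cadherin), both adhesion genes of germ cells, rose by 1.23 ± 0.08 and 2.34 ± 0.18.

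The X chromosome was represented more often among genes that rose alike. It held 34 of the 441 with a known chromosome (7.71%), 35 of the 852 that fell alike (4.11%) and 314 of all 8758 tested genes (3.59%), shares that were not tested. Of the 9 tested genes of the X-linked germ cell list 5 rose and 2 fell, against 6 and 1 with TMM scaling. Under that scaling 3789 of all 9008 genes tested rose and 2391 fell. Mageb4 was among those that fell, to 0.432, 0.480 and 0.643 normalised UMIs per cell in Diff cells, against 3.71, 3.07 and 2.69 in Undiff cells. The authors' U-motif score per gene had a median of 0.014 over genes that rose alike, 0.013 over those that fell alike and 0.013 over all tested genes, and the scale of this score is not given.

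**Figure D3:**
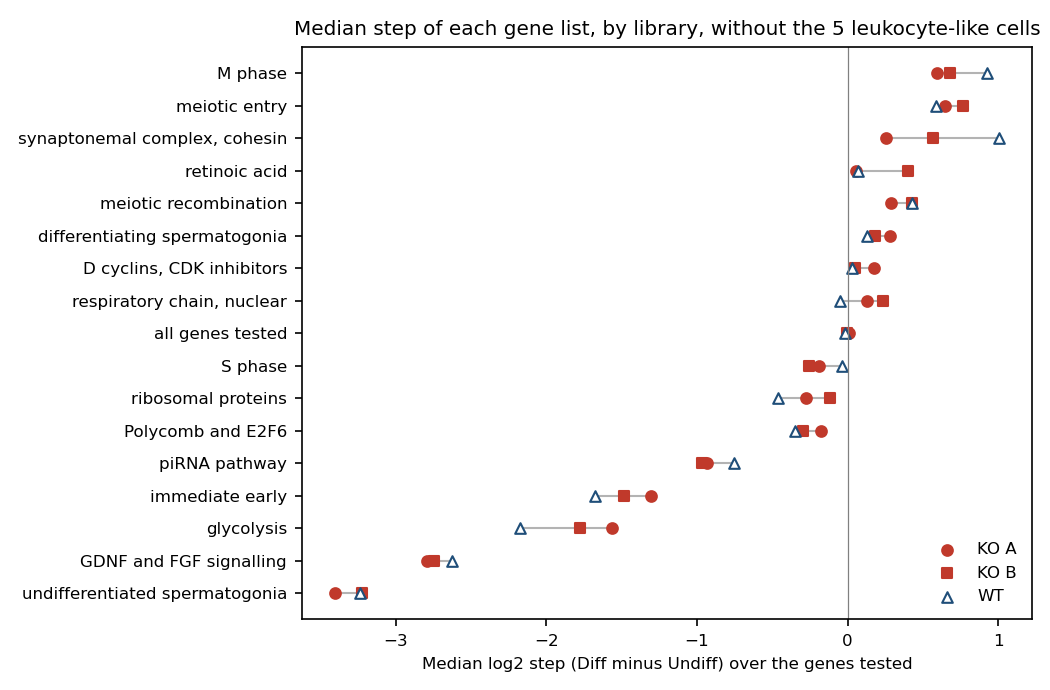
Median log2 step of the tested genes of each list, without the 5 leukocyte-like cells, for KO A, KO B and WT. The list of undifferentiated spermatogonia lies lowest at about the same value in the 3 libraries, and for the synaptonemal complex and cohesin KO A (0.25) and KO B (0.57) lie left of WT (1.00).

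The second question was which steps differ between the KO libraries and the WT library. The difference is the mean step of KO A and KO B minus the step of WT. The spread in this test comes from the 2 KO libraries alone, and a like spread had to be assumed for the only WT library. In limma this spread was pooled over genes of like mean level. The limma SE and p-value of a gene therefore do not reflect the gap between its own 2 KO steps. Since there is 1 WT library, an effect of the genotype and one of that library cannot be told apart. In simulated counts the limma test of this difference called more unchanged genes than its threshold allows, while edgeR's quasi-likelihood test called few. Genes are therefore reported when both called them, which was decided after the limma results had been seen. The simulation set the same spread beyond counting error for every gene. It cannot show that edgeR keeps its threshold on the real counts. Without the leukocyte-like cells both tests called 52 genes (0.582% of 8941 tested), of which 36 had a higher step in KO (0.403%) and 16 a lower one (0.179%). With all cells kept the counts were 124 (1.38%), 86 (0.955%) and 38 (0.422%). Of the 52 genes, 51 were also called by both tests with all cells kept, and the other was Cnn3, an actin-binding calponin, with a difference of 0.84 without the leukocyte-like cells and of 0.70 ± 0.25 with all cells (limma adjusted p = 0.0899, edgeR adjusted p = 0.0280).

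Without these cells limma called 112 higher (1.25%) and 98 lower (1.10%), 210 in all (2.35%), edgeR 40 (0.447%) and 17 (0.190%), and DESeq2 2 (0.0224%) and 0. With all cells limma called 297 higher (3.30%) and 163 lower (1.81%), 460 in all (5.11%), and edgeR 89 (0.988%) and 40 (0.444%). At an unadjusted p under 0.05, without these cells, DESeq2 had 56 genes higher and 46 lower, edgeR 492 and 467, and limma 733 and 653. A share of about 0.05 of the 8941 genes would pass this limit if no step differed. The tests thus disagree on how many steps differ. The split of the limma calls turns with the scaling: 53.3% were higher without these cells, 64.6% with all cells, and 35.5% with TMM scaling and without these cells (123 higher and 223 lower).

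**Figure D4:**
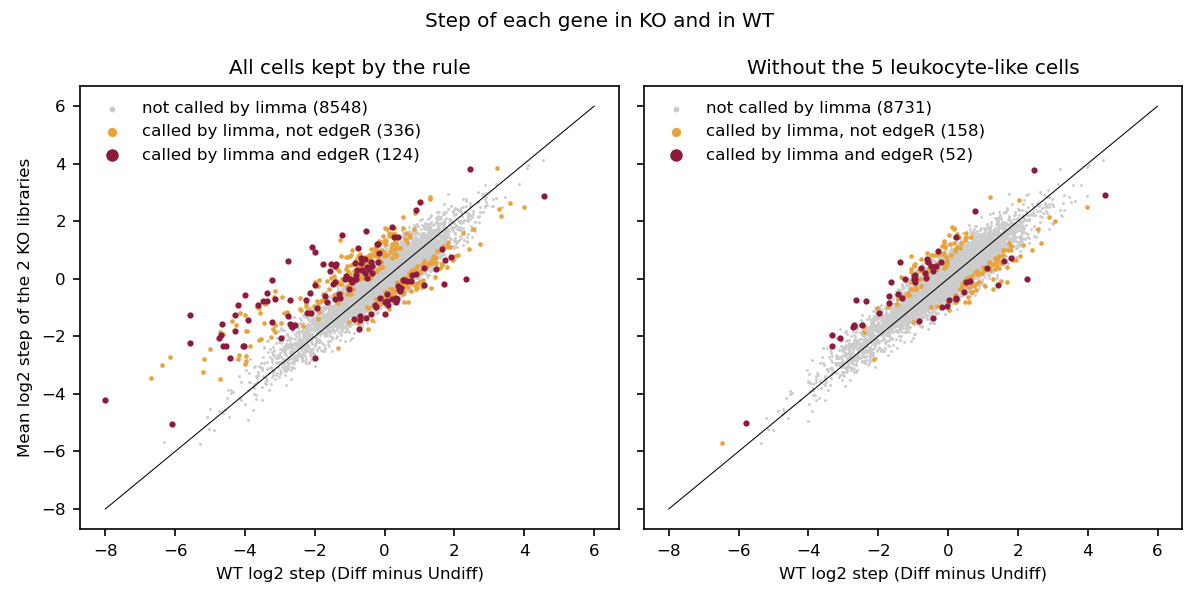
Each point is a gene, with its log2 step in WT on the x axis and its mean log2 step in KO A and KO B on the y axis, for all kept cells (left) and without the 5 leukocyte-like cells (right). Points far above the diagonal at low WT steps are present on the left, where limma and edgeR both call 124 genes, and are few on the right, where both call 52.

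Steps found in KO only were called by both tests for 2 genes without the leukocyte-like cells (0.0224%), where KO only asks for a log2 step of at least 1 in both KO libraries and under 0.5 in WT, and WT only asks for the reverse. Kit, the receptor of stem cell factor and the classical marker of differentiating spermatogonia, stood at 1.12 and 1.04 normalised UMIs per cell in Diff cells of KO A and KO B and at 0.725 in WT. In Undiff cells Kit stood at 0.386 and 0.349 in KO A and KO B and at 0.608 in WT. The step was 1.42 and 1.45 in the KO libraries and 0.24 in WT, a difference of 1.20 ± 0.25 (log2, SE, limma adjusted p = 0.000491, edgeR adjusted p = 0.000938). Both ends moved: Kit was higher in Diff cells and lower in Undiff cells of both KO libraries than of WT. The WT value in Undiff cells rests on 46 UMIs. Cdca4, linked to cell cycle control, stood at 0.431 and 0.461 in KO Diff cells and at 0.531 in WT Diff cells, with Undiff levels of 1.32 and 1.16 in KO and 0.738 in WT. The steps of Cdca4 were -1.51 and -1.24 in KO and -0.44 in WT. It thus fell in every library, and its WT step was close to the limit of 0.5. Its difference was -0.94 ± 0.24 (limma adjusted p = 0.0110, edgeR adjusted p = 0.0446). Limma called 14 genes in KO only (0.157%) and 30 with all cells kept (0.333%), of which edgeR also called 5 (0.0555%).

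Steps found in WT only were called by both tests for 4 genes (0.0447%), and for 10 with all cells kept (0.111%). Limma called 18 (0.201%) and 35 (0.389%). Camk2n1, an inhibitor of the kinase CaMKII, stood at 0.546 and 0.541 normalised UMIs per cell in KO Diff cells and at 0.222 in WT Diff cells. Its Undiff levels were 0.524 and 0.575 in KO and 0.594 in WT, so the libraries differed in Diff cells and were close in Undiff cells. The difference was 1.23 ± 0.28 (log2, SE, limma adjusted p = 0.00269, edgeR adjusted p = 0.00135). Myo6, an actin motor, had steps of -0.25 in KO A and -1.63 in WT, and its KO B levels were 0.249 in both clusters.

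Ccnb3, the X-linked cyclin of meiotic cells, and Med27, a Mediator subunit, were higher in Diff cells in WT only, and both are named because of these values. Ccnb3 stood at 0.126 and 0.145 normalised UMIs per cell in KO Diff cells and at 0.472 in WT Diff cells, with Undiff levels of 0.138 and 0.139 in KO and 0.0585 in WT. The difference of -2.29 ± 0.40 (log2, SE, limma adjusted p = 8.66e-06, edgeR adjusted p = 0.00270) rests at the WT Undiff end on 5 UMIs (95% exact Poisson interval 1.62 to 11.7, counting error only). The Diff end rests on 69, 146 and 409 UMIs in KO A, KO B and WT. Med27 had steps of -0.34 and -0.12 in KO and 1.42 in WT, with 8 UMIs in WT Undiff cells.

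Some genes of meiotic chromosomes had lower steps in KO. Of the 12 tested genes of the synaptonemal complex and cohesin, 4 had a lower step in KO by both tests and 0 a higher one, against 0.179% of all genes with a lower step, and 8 were not called by both. The list was chosen with earlier results of these data known, and all 4 genes are set against the same WT library. This contrast is therefore a description. Limma called 5 lower, these 4 among them, and 6 with TMM scaling. Over all 8941 genes tested limma called 98 lower, and 223 with TMM scaling. The median step of the list was 0.25 in KO A, 0.57 in KO B and 1.00 in WT. Of the 19 tested recombination genes 0 were called lower by both tests and 1 by limma alone, and their median step was 0.29 in KO A, 0.43 in KO B and 0.43 in WT. Stag3, a meiotic cohesin subunit, stood at 1.49 and 1.35 normalised UMIs per cell in KO Diff cells and at 3.05 in WT Diff cells, and its Undiff levels were 0.911 and 0.900 in KO and 0.968 in WT. The difference was -0.98 ± 0.19 (log2, SE, limma adjusted p = 0.000167, edgeR adjusted p = 0.0110).

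Tex12, of the central element of the synaptonemal complex, stood at 0.704 and 0.878 in KO Diff cells and at 1.95 in WT Diff cells, and in Undiff cells at 1.27 and 1.38 in KO and 1.65 in WT. It thus had steps of -0.80 and -0.63 in KO and 0.23 in WT, a difference of -0.95 ± 0.19. Hormad1, of the unsynapsed axis, stood at 1.21 and 1.56 in KO Diff cells and at 2.48 in WT Diff cells, with Undiff levels of 1.06 and 1.03 in KO and 1.12 in WT, a difference of -0.74 ± 0.19. Smc1b, the meiotic cohesin SMC, stood at 5.28 and 5.40 in KO Diff cells and at 8.02 in WT Diff cells, with Undiff levels of 6.00 and 5.51 in KO and 5.58 in WT, a difference of -0.63 ± 0.15. In these genes both KO libraries were below WT in Diff cells, and the Undiff levels differed less. Rec8 and Sycp2 were not called by both tests, and their steps were past 1 in every library.

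Other genes called lower by both tests include Ythdc2 itself, at -1.06 ± 0.26, with steps of 0.76 and 0.70 in KO and 1.79 in WT. Zcwpw1, a reader of the histone marks set by PRDM9, had steps of -0.09 in both KO libraries and 0.63 in WT. Mael, of the piRNA pathway, fell in every library, by 1.48 and 1.46 in KO and by 0.83 in WT, and Slc25a31, the ADP/ATP carrier of germ cells, stood at 3.73 and 3.43 in KO Diff cells and 5.76 in WT Diff cells, against 6.91 and 6.89 in KO and 5.84 in WT among Undiff cells. Ly6k, a surface protein of the testis, rose strongly in each library, by 2.63 and 3.21 in KO and 4.49 in WT, with 7 UMIs in WT Undiff cells.

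**Figure D5:**
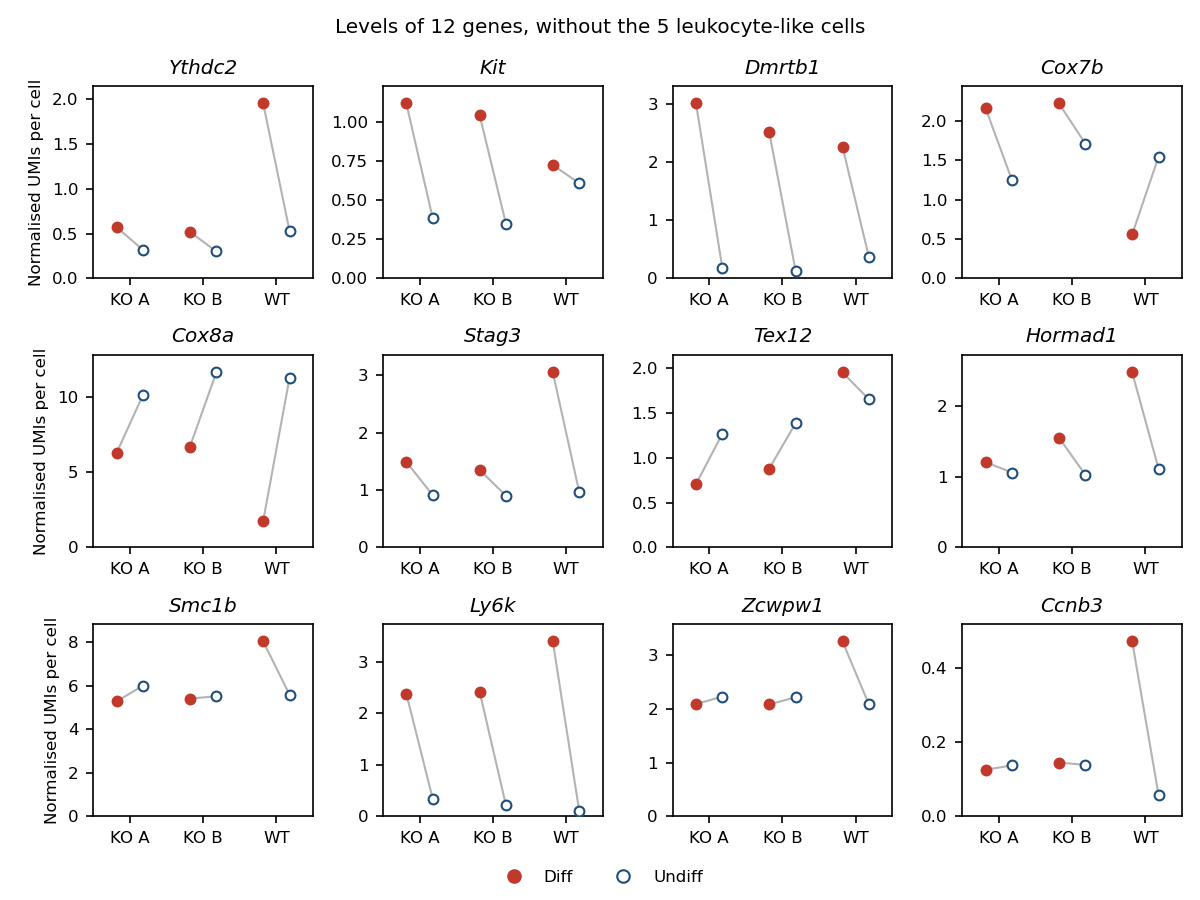
Levels of 12 genes in normalised UMIs per cell, Diff (filled) left of Undiff (open) in KO A, KO B and WT, without the 5 leukocyte-like cells. Kit in Diff cells is higher in KO A (1.12) and KO B (1.04) than in WT (0.725), Cox8a is lowest in WT Diff cells (1.76), and Stag3 is highest in WT Diff cells (3.05).

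Among genes whose step was higher in KO than in WT by both tests, a pair of cytochrome c oxidase subunits had the largest differences. Cox8a, encoded in the nucleus, stood at 6.30 and 6.71 normalised UMIs per cell in KO Diff cells and at 1.76 in WT Diff cells. Its Undiff levels were 10.2 and 11.6 in KO and 11.3 in WT, which overlap. Cox8a thus fell in every library, with steps of -0.68 and -0.79 in KO and -2.64 in WT. The difference was 1.91 ± 0.15 (log2, SE, limma adjusted p = 3.70e-33, edgeR adjusted p = 5.89e-25, DESeq2 adjusted p = 4.03e-13). Cox7b, another subunit, on the X chromosome, stood at 2.16 and 2.22 in KO Diff cells and at 0.559 in WT Diff cells, with Undiff levels of 1.25 and 1.71 in KO and 1.55 in WT. The steps of Cox7b were 0.77 and 0.37 in KO and -1.39 in WT. Its difference was 1.96 ± 0.18 (DESeq2 adjusted p = 0.00195), and these were the 2 genes that DESeq2 called as well. Of the 26 nuclear respiratory genes, the steps of these 2 were called higher in KO and 0 lower by both limma and edgeR, against 0.403% and 0.179% of all genes tested. This list was chosen with earlier results of these data known, so the count is a description.

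Dmrtb1, described above, also had a step called higher in KO by both tests. It stood at 3.01 and 2.52 normalised UMIs per cell in KO Diff cells and at 2.27 in WT Diff cells, with Undiff levels of 0.177 and 0.130 in KO and 0.368 in WT, a difference of 1.33 ± 0.23. It thus rose in every library and differed mostly at the Undiff end, where WT rests on 26 UMIs. Pgam1, the 1 gene of the 16 tested for glycolysis that both tests called, and Mdh2, mitochondrial malate dehydrogenase, fell less in KO than in WT, with differences of 1.05 ± 0.16 and 0.90 ± 0.15. Over all genes tested both tests called 0.582%. Pgam1 stood at 1.62 and 1.50 in KO Diff cells and at 0.750 in WT Diff cells, and at 5.03 and 5.09 in KO and 5.22 in WT among Undiff cells. Crybg3 had steps of 2.04 and 2.68 in KO and 0.78 in WT. Rps4x, a ribosomal protein gene of the X chromosome with near-identical copies, is uncertain.

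Other calls of the analysis with all cells were lost without the leukocyte-like cells. Emp3 and Tmsb4x, both abundant in blood cells, had differences of 4.32 and 3.79 there, with Undiff levels of 0.281 and 0.00496 in KO and 2.39 in WT for Emp3. Without the 5 cells the WT Undiff library kept 1 UMI of Emp3, against 62 with them, and 2 of Tmsb4x, against 608. In all, 174 of the 460 genes that limma called with all cells were among the 210 it called without them.

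The KO libraries resembled each other more than WT in the size of single steps. Without the leukocyte-like cells the steps of KO A and KO B differed by 1 log2 unit or more for 81 genes. Those of KO A and WT did so for 349 genes and those of KO B and WT for 257. The WT Undiff cluster is the smallest, with 32 cells in this comparison. Median mitochondrial shares also differed by library, at 9.81% and 7.03% in KO Diff cells and 5.68% in WT Diff cells, and at 10.5% and 7.46% in KO Undiff cells and 5.52% in WT Undiff cells. Their part in the differences was not tested.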

How the data were processed

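Single-cell RNA libraries of 4N-sorted testis cells were analysed from the deposited matrix of 14103 genes and 4528 cells. Per the submitters' processing notes, the authors used Cell Ranger 3.0.2, Scanpy and the build mm10 (GRCm38). Values in the deposited matrix are the natural log of 1 plus the UMI count over a size factor; this was tested by undoing both, which gave whole counts within 0.01 for 100% of values and returned 99.9424% of the deposited UMI count per cell. The deposited cell table gives UMI counts, gene counts, the mitochondrial fraction and a size-factor score per cell. A U-motif score stands beside each gene in the table deposited with it. Because the matrix holds no raw counts, the main test was run on means, and count tests were run on the recovered UMIs as alternatives.

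Normalised UMIs were averaged per library and cluster, and log2(mean + 0.05) was tested with limma 3.58.1 (R 4.3.3), with a mean-variance trend, Benjamini-Hochberg adjustment over all genes with a mean of at least 0.1, and the library as a term. Clusters of 1 library are paired because their cells came from the same library. The step test had 2 residual degrees of freedom and the test of KO step minus WT step 1, from the KO libraries. In the latter test limma estimated infinite prior degrees of freedom, so its spread came wholly from the mean-variance trend over all genes. Alternatives were edgeR 4.0.16 (quasi-likelihood), DESeq2 1.42.0, TMM scaling, pseudocounts of 0.01 and 0.2, other filters and cell choices, and each library left out. Scrublet (Scanpy 1.11.5, Python 3.11.15) marked 22 of 4528 cells as doublets, 8 of them among the cells analysed, which were kept. Scripts were tested on simulated data.

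Named genes were Ythdc2, the spermatogonial lists, the 15 largest steps each way among genes that changed alike with a level of at least 0.5 in the higher cluster, up to 12 differences each way and per KO only or WT only class with such a level, and up to 4 called genes of each other list. The cells and gene lists were chosen with earlier results of these data known. The leukocyte genes, the requirement of both limma and edgeR, the motifs, the promoters shown and genes named for their difference outside the rule were chosen after seeing the data. Other samples of the series were not used here. 1 gene with a called difference is not reported here.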

Additional observations from a re-analysis of the deposited data

Results flagged for a closer look

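Each result here is a gene whose step differed between the KO libraries and the WT library by the test of the difference itself, in both limma and edgeR, given as the KO step minus the WT step in log2. Without the leukocyte-like cells 52 genes met this. Among those reported here, the ones with a difference of at least 1 were Cox7b 1.96, Cox8a 1.91, Crybg3 1.58, Myo6 1.50, Rps4x 1.35, Dmrtb1 1.33, Dusp2 1.29, Camk2n1 1.23, Fbxo6 1.22, Kit 1.20, Aph1a 1.16, Tmod3 1.14, Mtap 1.10, Pdcl3 1.09, Mettl9 1.09, Ptov1 1.08, Anxa7 1.07, Pgam1 1.05, Reep5 1.01 and Mpzl1 1.01. Smaller higher differences were those of Prmt3 0.95, Timm9 0.95, Tsfm 0.94, Mdh2 0.90, Sys1 0.86, Cnn3 0.84, Msl1 0.84, Adh5 0.83, Fbxo22 0.79, Tubb5 0.79, Pnrc1 0.78, Dynlrb1 0.78, Ppp1r14b 0.68, Acsl3 0.66 and Stoml2 0.64. Lower ones were those of Smc1b -0.63, Mael -0.64, Zcwpw1 -0.72, Hormad1 -0.74, Gmps -0.79, Rpgrip1 -0.80, Etf1 -0.91, Camta1 -0.92, Slc25a31 -0.92, Cdca4 -0.94, Tex12 -0.95, Stag3 -0.98, Ythdc2 -1.06, Ly6k -1.57, Med27 -1.65 and Ccnb3 -2.29. Cnn3 was not called by both tests with all cells kept. Every sign here rests on 2 KO libraries and 1 WT library.

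With all cells kept, the genes named by the rule that both tests called were flagged as well. The largest were Emp3 4.32, Tmsb4x 3.79, Pglyrp1 3.42, Cd82 3.38, S100a10 3.36, Id2 3.29, Cd160 3.20, Shisa5 3.11 and S100a11 3.04. These values include the 5 leukocyte-like cells in the Undiff cluster. Others with a higher step in KO were Kit 1.19, Sdf2 1.41, Hmg20b 1.09, Ezr 1.82, Myo6 1.78, Arpc1b 1.32, Sh3bgrl3 1.32 and Pdcl3 1.21. Those with a lower step in KO were Ythdc2 -1.16, Ly6k -1.68, Tmem267 -1.24, Fam118b -1.14 and Sec23b -1.14.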

How the results depend on the processing

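Pairing comes from the library shared by both clusters. With no replicate block, 2592 genes were higher and 2682 lower at the step, and 34 had a higher and 1 a lower KO step, with 0 in KO only and 4 in WT only. Leaving out each library in turn gave 2197 to 2917 genes higher and 2387 to 2973 lower at the step, and 523 to 624 and 984 to 990 alike. Without a KO library the difference has no residual degrees of freedom, so only its values were computed.

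The counts of genes higher and lower at the step stayed within 1.5 times under every alternative run. Genes that rose alike numbered 686 with TMM scaling, as also used with edgeR and DESeq2, and 207 with a pseudocount of 0.2, which also gave 441 that fell alike; 481 fell alike with a mean of at least 0.25.

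For the KO to WT difference with all cells, limma called 30 genes in KO only and 35 in WT only. The count in KO only was 13 with a pseudocount of 0.2, and 18 with 22 in WT only with a mean of at least 0.25. With no filter 56 had a lower step, and with TMM 184 a higher one. edgeR gave 89 higher, 40 lower and 10 in each class; DESeq2 gave 2, 0 and 0 in each class, with 79 higher and 42 lower at an unadjusted p under 0.05. Cells removed by the 7-gene rule, when kept, gave 13 in KO only and 62 in WT only, and equal cell numbers gave 190 higher, 72 lower and 16 in KO only. Both limma and edgeR called 86 higher, 38 lower, 5 in KO only and 10 in WT only. Leaving out the leukocyte-like cells, chosen after seeing the data, gave 112 higher, 98 lower, 14 in KO only and 18 in WT only.

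Without those cells, a pseudocount of 0.01 gave 63 higher and 64 lower, and one of 0.2 gave 5 in KO only and 5 in WT only. A mean of at least 0.25 gave 9 and 10, TMM gave 223 lower, and equal cell numbers gave 47 lower and 4 in KO only. edgeR gave 40 higher, 17 lower, 3 in KO only and 6 in WT only, DESeq2 2, 0, 0 and 0, and limma with edgeR 36, 16, 2 and 4. The causes were not tested.

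Over the named genes, 1918 of 1941 values of the step kept their direction and side of the threshold, 18 lost the call and 4 gained it; that of Tex14 was -0.019 without the WT library and 0.19 without KO B. For the difference, of the values that had a test, 182 of 659 lost the call with all cells and 107 of 296 without the leukocyte-like cells. That of Cnn2 turned to -0.69 when those cells were left out; no other value of a named gene changed sign. Depth limits the WT Undiff cluster most, at 818038 UMIs from 35 cells.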
